A study of Mus musculus with 21 samples.

Results

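Mouse 4-cell embryos were compared with 8-cell embryos, the step of cleavage that lies between the decay of maternal RNA and the first compaction of the embryo. The comparison used 4 short-read libraries, 2 for each stage, and 2 long-read pools, 1 for each stage, which are 6 of the 21 samples of a series that runs from sperm and oocyte to the blastocyst. All embryos came from matings of DBA/2J males with C57/BL6J females and were grown in culture after hormone-induced ovulation. The 4-cell embryos were collected between 54 and 58 h, and the 8-cell embryos between 68 and 70 h, after the injection of human chorionic gonadotropin that triggers ovulation. The labels name no engineered allele or treatment. Each library was made from the amplified cDNA of many pooled embryos, so that fewer cells carrying an RNA and less of it per cell cannot be told apart. Stage and time after hormone injection change together in these groups.

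During early cleavage the embryo divides without growing, and the transcripts it inherited from the oocyte are degraded while its own genome takes over. At the 8-cell stage the blastomeres flatten against each other through E-cadherin contacts and acquire an apical domain. The cells that keep this domain on the outside later form the trophectoderm, which gives rise to the placenta, and the enclosed cells form the inner cell mass.

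The unit of every level below is TPM, an abundance per transcript length scaled to 1 fixed total per library. The catalogue held 22612 transcripts merged from the long reads of all stages. These transcripts were summed to 10934 genes of the GENCODE vM21 annotation and 3954 loci that overlap no annotated exon on their strand, called new loci here. Between 10895 and 11870 genes reached 1 TPM in a library. Pearson's r of log2(TPM + 1) over transcripts was 0.949 between the 4-cell libraries, 0.926 between the 8-cell libraries, and 0.746 to 0.807 across the stages. Mitochondrially encoded transcripts took 0.745% and 0.945% of TPM at the 4-cell stage, 0.673% in 8-cell replicate 1 and 0.0686% in 8-cell replicate 2, and their part in the results was not tested. TPM keeps no read counts and the counting error of a value was not computed here, and the p-values measure the spread between 2 batches of pooled embryos per stage.

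The genes by which these stages are recognised moved in several ways. Pou5f1, a pluripotency factor active throughout cleavage, stood at 32.1 and 35.0 TPM at the 4-cell stage and at 69.6 and 180 TPM at the 8-cell stage. Dppa5a, an RNA-binding protein of pluripotent cells, was at 3132 and 2705 TPM and then at 6613 and 4843 TPM. Tdgf1, a co-receptor of Nodal signalling, stood at 91.0 and 86.4 TPM and then at 60.4 and 38.3 TPM, and did not pass the test (limma adjusted p = 0.10). The 2-cell markers Zscan4c and Zscan4d were already low, at 2.12 to 3.07 TPM at the 4-cell stage and 0.0928 to 1.61 TPM at the 8-cell stage. All 4 oocyte markers (Zp3, Gdf9, Bmp15 and Nlrp5) were still measurable at the 4-cell stage and lower in both 8-cell libraries.

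At gene level, 12105 genes reached 1 TPM in at least 2 of the 4 libraries and were tested with limma on log2(TPM + 1). A gene under 1 TPM in both libraries of 1 stage passed this filter only through the stage where it was high. Such genes are counted in the shares of the lists below. Examples are Lrp2, Cdx2, Sox2, Gdf3, Ezr and Col4a1 among the rises and Oog3, Bmp15 and Wee2 among the falls. At a Benjamini-Hochberg adjusted p under 0.05, 966 genes (7.98%) rose and 2906 genes (24%) fell, 32% in all, from the 4-cell to the 8-cell stage. The median change of all tested genes was -0.43 on the log2 scale, and TPM sums to the same total in each library. The 100 most abundant transcripts held 19.7% and 21.0% of TPM at the 4-cell stage, against 26.4% and 27.0% at the 8-cell stage. After quantile normalization, which forces the libraries to 1 common distribution and left a median change of 0.04, 1592 genes (13.2%) were called higher and 1518 genes (12.5%) lower. A set of 934 genes (7.72%) rose and 1511 (12.5%) fell with both scalings. Fewer genes were called with 3 libraries: 95 higher and 645 lower without 4-cell replicate 1, 56 and 556 without 4-cell replicate 2, and 525 and 1963 without 8-cell replicate 2, against 880 and 2944 without 8-cell replicate 1. In each of these 4 fits 44 of the 966 and 500 of the 2906 genes were called. The direction of every gene called on TPM was the same with both scalings, and the calls named below held with both unless stated otherwise.

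**Figure D1:**
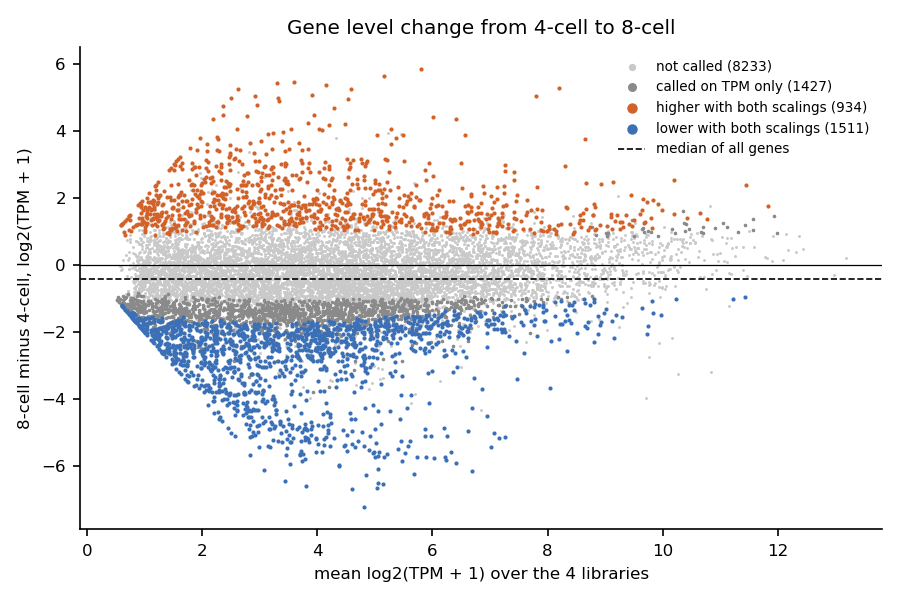
Each point is 1 of 12105 genes, with the mean log2(TPM + 1) of the 4 libraries on the x axis and the 8-cell minus 4-cell difference in log2(TPM + 1) on the y axis. Orange points are the 934 genes that rose, and blue points the 1511 that fell, with both scalings; the dashed line marks the median change of -0.43, and many of the genes called on TPM alone (dark grey) lie below it.

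The largest rise among protein-coding genes was that of Sdc4, the heparan sulfate proteoglycan syndecan-4 of the cell surface (chr2:164424248-164443186, mm10, minus strand), from 6.72 and 5.95 TPM to 396 and 452 TPM. This is a 66.9-fold higher mean and a difference of 5.85 ± 0.28 (SE) on the log2(TPM + 1) scale (limma adjusted p = 0.00118), measured mostly on a single-exon transcript that starts 17135 bases from the nearest annotated start. The aldo-keto reductase gene Akr1b8 stood at 1.67 and 1.85 TPM and then at 107 and 119 TPM, 64.2-fold higher. Ass1, which encodes the arginine-forming enzyme argininosuccinate synthase, was near 1 TPM at the 4-cell stage (0.991 and 0.562) and at 53.0 and 57.2 TPM at the 8-cell stage. In all 3 genes the 8-cell libraries lay close to each other. That they lay above both 4-cell libraries was a condition of this ranking.

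The LIM-domain gene Crip2 was the most abundant of the 10 genes with the largest rise, at 39.2 and 36.5 TPM and then at 1014 and 1613 TPM. Perp, a membrane protein of desmosomes, stood at 1.29 and 0.517 TPM and then at 44.0 and 66.7 TPM. Dap, a regulator of autophagy, was at 2.25 and 1.02 TPM and then at 68.3 and 108 TPM. Gata3, a transcription factor of the trophectoderm, had the widest spread of these genes, at 3.53 and 2.82 TPM and then at 73.2 and 223 TPM. The most abundant Gata3 transcript starts 10047 bases from the nearest annotated start. Smim1, 1500009L16Rik and Gm10031 complete the 10, with log2 differences of 5.24, 5.65 and 5.04, and Gm10031 was measured on a single-exon transcript. Of the 10 genes, 9 stayed called in each of the 4 fits that left out 1 library, the exception being Gata3.

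The largest fall among protein-coding genes was that of Oog3, an oocyte gene of the leucine-rich oogenesin family (chr4:144157558-144162648, mm10, minus strand), from 94.6 and 85.6 TPM to 0.668 and 0.307 TPM. Its difference was -5.95 ± 0.32 (SE) on the log2(TPM + 1) scale (limma adjusted p = 0.00118). The paralogues Omt2a and Omt2b stood at 276 and 426 TPM and at 250 and 403 TPM at the 4-cell stage, and no 8-cell library exceeded 10.5 TPM for either. The 2 copies are alike in sequence, so that their reads may be shared between them. Nlrp9c, of a family of oocyte NLR proteins, was at 47.8 and 47.3 TPM and then at 1.15 and 0.242 TPM. The F-box gene Fbxw24 was at 59.2 and 61.4 TPM and then at 1.45 and 0.572 TPM, and Gm10436 at 61.6 and 59.6 TPM and then at 1.20 and 0.166 TPM. Each of these families has further close members in the mouse genome, so the assignment of reads within a family is uncertain.

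The remaining 4 of the 10 largest falls were measured on transcripts that begin inside the gene. Spry4, an inhibitor of receptor tyrosine kinase signalling, fell from 112 and 133 TPM to 3.74 and 4.48 TPM, and its most abundant transcript was a single exon that starts 13106 bases from the nearest annotated start. Gdap1, a protein of the mitochondrial outer membrane, fell from 94.2 and 107 TPM to 1.56 and 0.170 TPM with a start 5213 bases away. Unc13c, a relative of synaptic vesicle priming factors, fell from 94.9 and 87.7 TPM to 0.862 and 0.783 TPM with a start 453927 bases away. Clec16a, a regulator of endosomes and mitophagy, fell from 61.6 and 89.0 TPM to 0.984 and 2.24 TPM with a start 1390 bases away. The most abundant transcripts of Gdap1, Unc13c and Clec16a were single exons as well. All 10 genes stayed called lower in each of the 4 fits without 1 library.

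**Figure D2:**
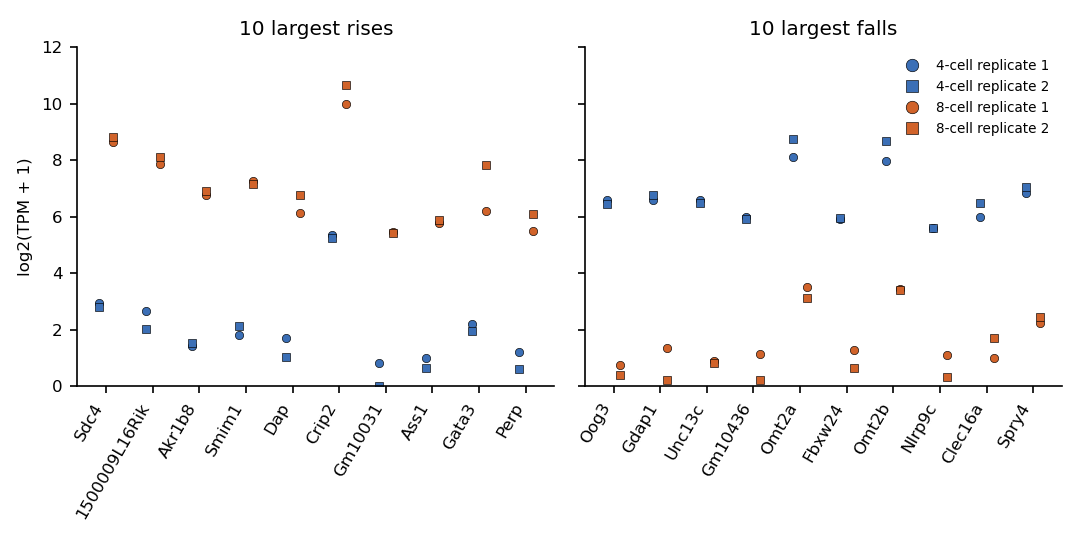
log2(TPM + 1) of the 10 protein-coding genes with the largest rise (left) and the 10 with the largest fall (right) in each library, 4-cell in blue and 8-cell in orange, circles for replicate 1 and squares for replicate 2. The genes were chosen among those whose libraries of the stages do not overlap, so the stages lie apart in every gene by that choice. The widest gap between replicates is that of Gata3 at the 8-cell stage.

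Transcripts that begin away from the annotated start were more frequent among genes that fell. Of 882 protein-coding genes lower with both scalings, 333 (37.8%) had a most abundant transcript that starts more than 1000 bases from every annotated start of the gene. The share was 17.5% (129 of 736) among protein-coding genes higher with both scalings and 24.1% (2037 of 8467) among all that were tested. Single-exon transcripts made up 181 of the 333 and 47 of the 129. These shares are given as a description, and when single-exon transcripts were left out, 1016 genes were called higher and 2338 lower.

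The promoters of 4 genes with large changes, each with a measured start within 18 bases of a RefSeq start, are shown to place the changes at a defined start. They hold the 250 bases before the RefSeq start (build GRCm38.p6, written 5′ to 3′ on the strand of the gene), and capitals mark matches to 5 short motifs searched on both strands. The motifs were the TFAP2 palindrome GCCNNNGGC, the nuclear receptor motif AAGGTCA, the TEAD motif CATTCC, the GATA motif AGATAA and the TATA motif TATAAA.
Akr1b8, chr6:34353896-34354145, plus strand: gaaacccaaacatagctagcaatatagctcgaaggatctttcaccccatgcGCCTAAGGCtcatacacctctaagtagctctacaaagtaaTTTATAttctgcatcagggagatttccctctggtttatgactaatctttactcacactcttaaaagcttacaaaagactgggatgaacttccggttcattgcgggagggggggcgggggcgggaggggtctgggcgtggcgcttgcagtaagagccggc
Tfcp2l1, chr1:118627695-118627944, plus strand: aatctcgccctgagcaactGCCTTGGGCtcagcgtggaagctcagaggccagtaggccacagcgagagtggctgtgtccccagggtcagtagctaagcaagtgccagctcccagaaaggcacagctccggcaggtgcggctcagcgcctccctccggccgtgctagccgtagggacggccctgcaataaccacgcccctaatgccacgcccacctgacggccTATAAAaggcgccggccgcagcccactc
Oog3, chr4:144162652-144162901, minus strand: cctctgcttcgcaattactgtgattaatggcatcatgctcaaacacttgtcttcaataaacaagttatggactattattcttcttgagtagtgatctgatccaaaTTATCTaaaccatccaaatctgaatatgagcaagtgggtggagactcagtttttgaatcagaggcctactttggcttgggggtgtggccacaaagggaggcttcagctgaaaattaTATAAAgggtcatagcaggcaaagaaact
Nlrp9c, chr7:26403701-26403950, minus strand: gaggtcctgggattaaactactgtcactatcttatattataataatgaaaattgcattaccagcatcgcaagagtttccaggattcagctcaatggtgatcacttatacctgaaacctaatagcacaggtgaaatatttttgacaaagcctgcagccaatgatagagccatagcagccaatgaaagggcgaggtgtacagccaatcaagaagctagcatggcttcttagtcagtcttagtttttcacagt
Akr1b8 and Tfcp2l1, which rose, each hold a TFAP2 match and a TATA match, the TATA match of Akr1b8 being on the other strand. Oog3, which fell, holds a TATA match and a GATA match, and Nlrp9c none of the 5. The window held 9 CpG in Akr1b8, 16 in Tfcp2l1, 1 in Oog3 and 2 in Nlrp9c. These 4 promoters are examples and do not stand for all genes that rose or fell.

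Over all genes with a measured start within 300 bases of a RefSeq start, the same 5 motifs showed small differences between the directions. A TEAD match was found in 12.8% of 439 promoters of genes higher with both scalings, in 7.83% of 447 promoters of genes lower with both, in 9.90% of 5061 tested genes and in 12.6% of all 32851 RefSeq promoters. TATA matches were found in 7.74%, 10.1%, 6.66% and 12.4% of these groups, TFAP2 matches in 20.7%, 18.1%, 18.9% and 13.7%, GATA matches in 5.69%, 5.15%, 5.39% and 9.99%, and nuclear receptor motifs in 3.19%, 3.13%, 2.98% and 4.08%. The 49 promoters of genes that fell by more than 3 on the log2 scale held a median of 3 CpG, against 11 in the 49 promoters of genes that rose by as much and 16 in all tested genes. A match is only a string of letters in the window.

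The trophectoderm list, genes of the future outer layer, had the highest share of rises. Of 16 tested genes 9 rose and none fell (56.2% against 7.98% of all genes), with a median change of 1.70 against -0.43 over all genes. Krt8 and Krt18, the paired keratins of the first epithelium, stood at 13.5 and 4.13 TPM and at 18.4 and 6.09 TPM at the 4-cell stage. Both were higher in each 8-cell library, at 75.3 and 208 TPM for Krt8 and at 122 and 244 TPM for Krt18. The endocytic genes Dab2 and Lrp2, an adaptor and its receptor megalin, rose from 4.73 and 2.22 to 72.0 and 83.1 TPM and from 0.461 and 0.456 to 13.8 and 15.9 TPM. Cdx2, the transcription factor that defines the trophectoderm, was at 0.284 and 0 TPM and then at 1.96 and 4.89 TPM (limma adjusted p = 0.0203), so that it rose to a level still below 5 TPM. Cdx2 and Lrp2 passed the filter only through the 8-cell libraries, so their direction carries little weight in the share of rises.

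Of 26 pluripotency factors 9 rose and 5 fell (34.6% and 19.2%, against 7.98% and 24% of all genes), with a median change of 0.41. Single members moved in both directions by large amounts. Tfcp2l1 rose from 13.2 and 12.7 TPM to 284 and 313 TPM (log2 difference 4.42 ± 0.28 SE, limma adjusted p = 0.00118), and Gdf3, a ligand of the TGF-beta family, from 0.769 and 0.486 to 16.2 and 20.5 TPM. Sox2, Nanog, Zfp42 and Utf1 rose as well, Sox2 from 0.236 and 0.357 to 4.05 and 4.54 TPM and Nanog from 9.22 and 11.2 to 24.5 and 33.2 TPM. The Krüppel-like factor Klf17 fell from 263 and 247 TPM to 12.0 and 15.4 TPM (log2 difference -4.13 ± 0.29 SE, limma adjusted p = 0.00126). Nr5a2, an orphan nuclear receptor, was at 161 and 178 TPM and then at 78.7 and 54.5 TPM, a difference that was called on TPM (limma adjusted p = 0.0252) and not after quantile normalization (adjusted p = 0.0536). Dppa5a likewise was called higher on TPM and not after quantile normalization (adjusted p = 0.188).

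Among 10 tested genes of the primitive endoderm list 3 rose and 2 fell on TPM (30% and 20%, against 7.98% and 24% of all genes). After quantile normalization 6 rose and 2 fell (60% and 20%, against 13.2% and 12.5%). Gata6, a factor of that lineage that is broadly present before it forms, rose from 18.1 and 14.8 TPM to 83.0 and 56.6 TPM, and the basement membrane collagen gene Col4a1 rose from 0.482 and 0.589 to 9.39 and 11.4 TPM. Gata4, a related factor, fell from 30.0 and 31.7 to 3.86 and 3.77 TPM, on a most abundant transcript that starts 9899 bases from an annotated start. Spry4, described above, was the other fall.

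Adhesion and junction genes, the machinery of compaction, rose in 11 of 28 tested genes and fell in 2 (39.3% and 7.14%, against 7.98% and 24% of all genes), with a median change of 0.67. Cdh1, which encodes E-cadherin, rose from 7.23 and 6.65 TPM to 21.1 and 15.2 TPM, a log2 difference of 1.25 ± 0.33 (SE, limma adjusted p = 0.0357), on merged transcripts that start 52747 bases from the nearest annotated start. Its partner alpha-catenin (Ctnna1) rose from 38.7 and 38.7 TPM to 90.8 and 96.5 TPM. Ezr, the apical membrane linker ezrin, was 14.2-fold higher and Actn1, the actin cross-linker alpha-actinin, 6.58-fold higher. Cldn6, a claudin of tight junctions, was at 24.3 and 38.1 TPM and then at 7.33 and 12.1 TPM, called lower on TPM alone (limma adjusted p = 0.0319, and 0.123 after quantile normalization).

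Genes of Hippo signalling and cell polarity, which tell outer from inner cells, rose in 3 and fell in 6 of 22 on TPM (13.6% and 27.3%, against 7.98% and 24% of all genes). The rises were the angiomotin relative Amotl2, at 2.17 and 1.61 TPM and then at 15.4 and 12.5 TPM, and the atypical protein kinases of the apical domain Prkci and Prkcz, 2.55-fold and 2.57-fold higher. Nf2, an upstream activator of the pathway, fell from 84.5 and 71.6 to 15.3 and 28.1 TPM. Yap1, its transcriptional effector, was called lower on TPM (27.7 and 37.8 against 11.9 and 10.1 TPM, limma adjusted p = 0.0223) and not after quantile normalization (adjusted p = 0.0970). After quantile normalization, 4 genes of the list were called higher and 1 lower (18.2% and 4.55%, against 13.2% and 12.5%). The most abundant Nf2 and Yap1 transcripts start 17520 and 27303 bases from an annotated start, so these values describe transcripts from inside the genes.

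Of 6 tested pumps and water channels that later fill the blastocyst cavity, 1 rose and 3 fell (16.7% and 50%, against 7.98% and 24% of all genes). The aquaglyceroporin gene Aqp3 rose from 9.71 and 8.19 to 68.6 and 103 TPM. The channel genes Aqp11 and Aqp9 fell, the first from 67.2 and 56.97 to 8.86 and 8.20 TPM and the second from 95.8 and 104 to 34.4 and 27.3 TPM.

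Among the lists with at least 10 tested genes, that of oocyte and maternal-effect genes had the highest share of falls. Of 40 tested genes 33 fell and 1 rose (82.5% lower against 24% of all genes), and 24 fell after quantile normalization as well. The median change was -2.12 on TPM and -1.51 after quantile normalization. Zp3, a protein of the egg coat, was at 52.2 and 71.8 TPM and then at 9.96 and 7.66 TPM. The oocyte growth factor genes Gdf9 and Bmp15 stood at 15.9 and 19.9 TPM and at 7.17 and 5.92 TPM, and then at 1.64 and 1.71 TPM and at 0.502 and 0.380 TPM. Nlrp5, a scaffold of the subcortical maternal complex, fell from 23.4 and 23.7 TPM to 1.51 in each 8-cell library.

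Khdc3, another member of that maternal complex, was the 1 gene of the list that rose, from 188 and 61.5 TPM to 1023 and 2120 TPM (log2 difference 3.76 ± 0.62 SE, limma adjusted p = 0.0103). Its call was lost without 4-cell replicate 2 and without 8-cell replicate 2. Dppa3, a protector of maternal DNA methylation and the most abundant gene of the 4-cell libraries, stood at 8192 and 9783 TPM and then at 7471 and 7040 TPM, with no call (limma adjusted p = 0.374). The summed TPM of the list, most of it Dppa3, was 9613 and 11394 in 4-cell embryos and 8625 and 9280 in 8-cell embryos.

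Genes of the 2-cell activation burst fell in 7 of 24 tested members and rose in none, a share of 29.2% against 24% over all genes, and after quantile normalization 3 were called higher and 2 lower. Usp17lb, a deubiquitinase gene of a repeated family, fell from 35.7 and 50.9 to 8.02 and 5.62 TPM, and Zscan4a, which GENCODE lists as a pseudogene, fell from 4.30 and 3.15 to 0.340 and 0 TPM. Tdpoz1 was called lower on TPM alone (log2 difference -1.79, limma adjusted p = 0.0184, and 0.0529 after quantile normalization). Zfp352 stood at 6.55 and 8.95 TPM and then at 7.08 and 3.82 TPM. Tdpoz3 was at 1.21 and 2.30 TPM and then at 3.09 and 3.17 TPM, a difference called after quantile normalization only (adjusted p = 0.0475). Members of these families are near copies of each other, and their reads are hard to assign.

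**Figure D3:**
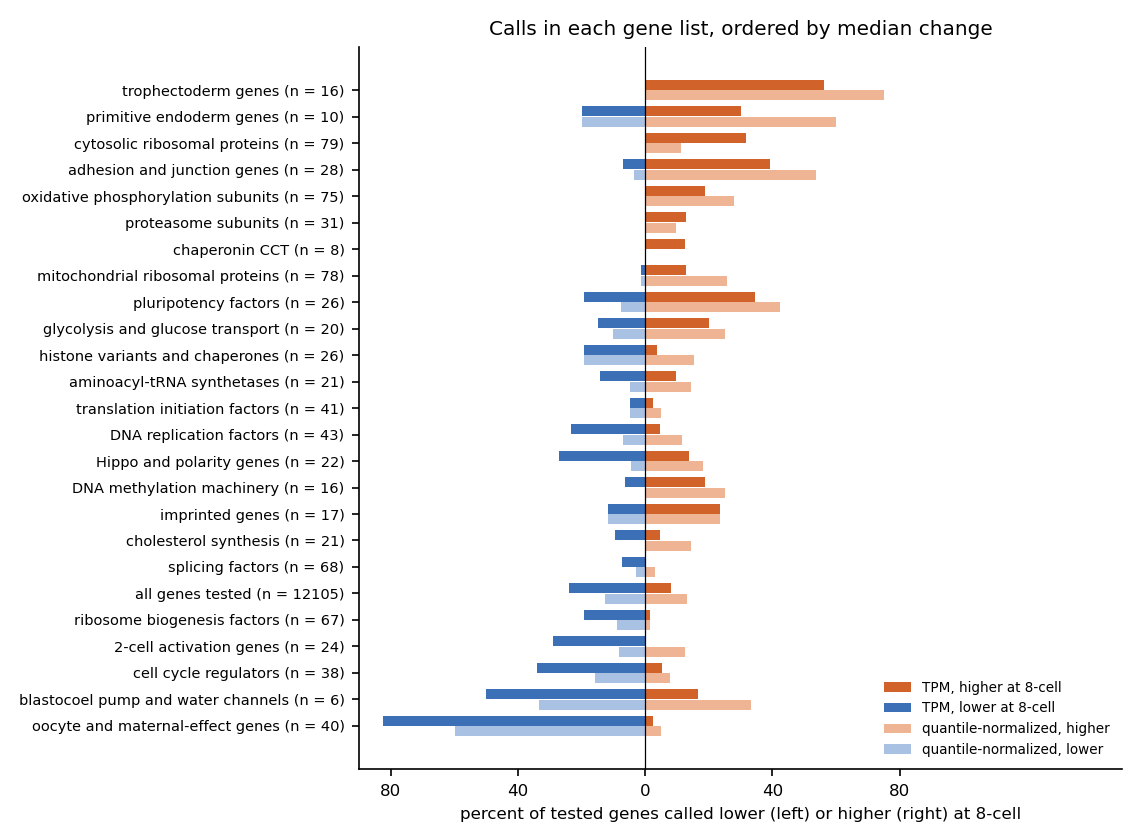
Percent of the tested genes of each list called higher (right, orange) or lower (left, blue) at the 8-cell stage, with TPM as deposited in dark and after quantile normalization in light colours, the lists ordered by their median log2(TPM + 1) change. The trophectoderm list (9 of 16 higher on TPM) is at the top and the oocyte list (33 of 40 lower) at the bottom, and the row for all 12105 genes gives the background.

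The protein synthesis machinery moved in separate ways. Of 79 cytosolic ribosomal protein genes 25 rose and none fell on TPM, with a median change of 0.75. The share of rises was 31.6% on TPM, against 7.98% of all genes, but 11.4% (9 genes) after quantile normalization, against 13.2% of all genes. In 73 of the 79 both 8-cell libraries lay above both 4-cell libraries, against 2538 of all 12105 tested genes. Together they made up 76149 and 77930 TPM at the 4-cell stage and 135214 and 122859 TPM at the 8-cell stage. Rpl31 and Rpl36 were 2.64-fold and 2.66-fold higher, and Rpl13 was called on TPM (limma adjusted p = 0.0322) and not after quantile normalization (adjusted p = 0.0744). Processed copies of ribosomal protein genes can share reads with them.

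Of 67 tested factors that build ribosomes 1 rose and 13 fell, with a median change of -0.54. The share of falls, 19.4% on TPM and 8.96% after quantile normalization, was no higher than the 24% and 12.5% of all genes, and the share of rises was 1.49% with either scaling. Polr1e, a subunit of RNA polymerase I, fell from 105 and 98.9 to 20.4 and 26.6 TPM and Utp15, of the small subunit processome, from 44.2 and 46.7 to 12.2 and 12.2 TPM. The rise was Tcof1, a nucleolar cofactor of that polymerase, from 23.5 and 30.6 to 96.5 and 90.3 TPM. Translation initiation factors had 1 rise and 2 falls in 41 (2.44% and 4.88%, against 7.98% and 24% of all genes). The repressor gene Eif4ebp1 was 5.69-fold higher. Both Eif4e, the cap-binding protein that this repressor holds, and its relative Eif4e3 fell, 2.79-fold and 15.6-fold. Among 21 aminoacyl-tRNA synthetase genes 2 rose and 3 fell (9.52% and 14.3%, against 7.98% and 24% of all genes). Vars was among the rises at 4.06-fold, and the mitochondrial Fars2 among the falls at 6.63-fold. Sars was at 14.6 and 12.3 TPM and then at 25.3 and 43.9 TPM, called after quantile normalization only (limma adjusted p = 0.0525 on TPM).

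Of 75 nuclear-encoded subunits of oxidative phosphorylation 14 rose and none fell on TPM (median 0.65), and 21 rose after quantile normalization. These are shares of 18.7% and 28%, against 7.98% and 13.2% of all genes, and most subunits passed with neither scaling. The mitochondrially encoded transcripts took a smaller share of TPM in both 8-cell libraries, as given above. Ndufb8 was at 239 and 251 TPM and then at 788 and 859 TPM, Ndufs6 at 185 and 166 TPM and then at 560 and 608 TPM, and Cox6c at 477 and 422 TPM and then at 1724 and 1148 TPM. Of 78 mitochondrial ribosomal protein genes 10 rose (12.8%) and 1 fell on TPM, and 20 rose (25.6%) and 1 fell after quantile normalization. Mrpl17 and Mrps35 were 3.74-fold and 3.63-fold higher, and Mrpl41 was the fall, from 227 and 254 to 70.2 and 90.1 TPM. Proteasome subunits had 4 rises (12.9%, against 7.98% of all genes) and no fall in 31 on TPM, and 3 rises after quantile normalization (9.68%, against 13.2%). Psma7 was 2.91-fold and Psmc4 2.38-fold higher, and Psmb3 2.12-fold higher on TPM alone. The chaperonin CCT had 1 rise in 8 (12.5%), Cct7, on TPM alone. Cct8 and Cct5 came next at log2 differences of 0.54 and 0.53 that did not pass.

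Sugar metabolism moved gene by gene. Of 20 tested genes 4 rose and 3 fell (20% and 15%, against 7.98% and 24% of all genes). The hexokinase gene Hk2 rose from 1.38 and 1.92 to 19.9 and 14.1 TPM on a transcript that starts 4643 bases from an annotated start, and the glucose transporter gene Slc2a1 from 1.36 and 1.90 to 5.69 and 11.5 TPM. The lactate dehydrogenase subunit gene Ldhb fell from 94.9 and 93.1 to 4.27 and 12.8 TPM, and Pdk1, a kinase that restrains pyruvate oxidation, fell from 13.9 and 13.9 to 1.35 and 0.735 TPM on a single-exon transcript that starts 13938 bases from an annotated start. In cholesterol synthesis 1 of 21 genes rose and 2 fell on TPM (4.76% and 9.52%, against 7.98% and 24% of all genes). After quantile normalization 3 rose and none fell (14.3% higher, against 13.2% of all genes). The rise on TPM was the sterol carrier gene Stard4 at 26.1-fold, and Sqle was among the falls on TPM alone. Insig1, which restrains that synthesis, stood at 65.2 and 89.5 TPM and then at 47.6 and 6.89 TPM, with no call.

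Cell cycle regulators fell in 13 of 38 tested genes and rose in 2 (34.2% lower against 24% of all genes), and 6 fell after quantile normalization. Wee2, the meiotic kinase of the oocyte, fell from 6.03 and 4.65 to 0.0413 and 0.0792 TPM, and E2f5, a repressive member of the E2F family, fell 8.49-fold. Ccnb1, the mitotic cyclin, fell 2.14-fold. The retinoblastoma gene Rb1 fell 29.6-fold on a single-exon transcript that starts 6057 bases from an annotated start. Cdkn1a, the p21 inhibitor, rose from 267 and 418 to 811 and 1011 TPM. Of 43 DNA replication factors 2 rose and 10 fell on TPM, and 5 rose and 3 fell after quantile normalization. The falls were 23.3% and 6.98% of the list, against 24% and 12.5% of all genes, and the rises 4.65% and 11.6%, against 7.98% and 13.2%. The DNA ligase gene Lig1 rose 3.74-fold, and Cdc45 and Gins3, parts of the replicative helicase, fell 3.49-fold and 3.54-fold.

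Chromatin genes held a few large changes. H2afy, which encodes the histone variant macroH2A, rose from 2.76 and 2.48 to 35.0 and 56.4 TPM. It was the 1 rise on TPM of 26 histone variant and chaperone genes (3.85%, against 7.98% of all genes), and after quantile normalization 4 rose (15.4%, against 13.2%). The oocyte nucleoplasmin gene Npm2 and the histone H3.3 chaperone gene Hira were among 5 falls, at 6.36-fold and 3.84-fold. The share of falls was 19.2% with either scaling, against 24% of all genes on TPM and 12.5% after quantile normalization. Of 16 genes of DNA methylation 3 rose (18.75%, against 7.98% of all genes). Among them were the methyltransferase gene Dnmt3b, from 27.4 and 26.4 to 92.6 and 91.8 TPM, and Tet2, whose 8-cell libraries were far apart (108 and 21.5 TPM). The main transcripts of Dnmt3b, Tet2 and Hira start 15079, 7426 and 19106 bases from an annotated start. Zfp57, which protects imprints, was the 1 fall of the DNA methylation list (6.25%, against 24% of all genes), on TPM alone. Of 17 imprinted genes 4 rose and 2 fell with either scaling (23.5% and 11.8%). The shares of all genes were 7.98% and 24% on TPM and 13.2% and 12.5% after quantile normalization. Gnas was 3.53-fold higher, and Usp29 22.6-fold and Phlda2 3.53-fold lower. No splicing factor of 68 rose on TPM, and 5 fell (7.35%, against 24% of all genes), with Hnrnph2 at 3.47-fold and Hnrnpul2 and Ptbp2 on TPM alone. After quantile normalization 2 were called higher and 2 lower (2.94% each, against 13.2% and 12.5% of all genes). Splicing factors were thus called less often than all genes.

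Among markers of other cells that an embryo collection could carry, Amhr2 and Hba-a1 stood out at the 4-cell stage, and most others had no merged transcript or lay below the filter. Of 17 cumulus cell markers 13 had no merged transcript and 3 lay below the filter, and the 1 tested gene, Amhr2, fell from 99.2 and 107 to 23.0 and 34.7 TPM. Sperm markers summed to 22.9 and 28.3 TPM at the 4-cell stage and to 15.4 and 31.7 TPM at the 8-cell stage, with 1 fall in 6 (Ldhc, log2 difference -2.32) and no call for the protamine gene Prm1 or for Tssk6. Blood markers summed to 130 and 151 TPM and then to 36.6 and 61.6 TPM, most of it Hba-a1, which fell from 95.5 and 145 to 31.3 and 40.5 TPM. The leukocyte genes Lyz2 and Cd74 were not called. Oviduct markers summed to between 8.16 and 11.5 TPM in the 4 libraries, and none of Ovgp1, Esr1 and Tppp3 passed the test on TPM (Tppp3 was called higher after quantile normalization). The part of these cells in the results was not tested.

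New loci fell more often than protein-coding genes, but on TPM less often than annotated lincRNA and antisense genes. Of 2914 tested, 145 rose and 810 fell on TPM (4.98% and 27.8%), and after quantile normalization 251 rose and 518 fell (8.61% and 17.8%). Of 8467 protein-coding genes 22.5% fell on TPM and 10.5% (888 genes) after quantile normalization. Of 304 lincRNA and antisense genes 33.2% and 17.8% fell. Falls of more than 3 on the log2 scale were found at 271 new loci, 206 of them single-exon, and rises of that size at 15. New loci took 11.8% and 18.9% of all TPM in 4-cell embryos. The 8-cell values were 10.998% in replicate 1 and 7.80% in replicate 2.

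The 4 multi-exon new loci with the largest fall were abundant at the 4-cell stage. XLOC_004956 (chr15:58911668-58913302, plus strand) was at 297 and 363 TPM and then at 1.99 and 2.53 TPM, and XLOC_012499 (chr6:126135377-126137007, minus strand) at 297 and 385 TPM and then at 1.63 and 4.05 TPM. XLOC_012323 (chr6:72137737-72139374, minus strand) was at 381 and 527 TPM and then at 3.37 and 6.95 TPM, and XLOC_004054 (chr13:44712670-44714315, minus strand) at 764 and 982 TPM and then at 8.95 and 13.8 TPM. The log2 differences were -6.66 to -6.16, larger than that of any protein-coding gene called.

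In 3 of the 4 the spliced transcript had 2 exons around an intron of 417 bases, and a search of the whole catalogue for 2-exon transcripts with an intron of 416 to 418 bases, made after these values were seen, returned 21 transcripts. Of these, 19 lie at new loci on 10 chromosomes, with first exons of 379 to 426 bases and second exons of 278 to 1589 bases. At 15 of the 19 the first exon had 383 to 397 bases and the second 810 to 871 bases. All 19 were called lower, against 27.8% of all tested new loci, with log2 differences from -6.66 to -1.44. They include the 3 loci that gave the intron length, whose fall was thus known beforehand. Summed over the 19 loci the TPM was 3340 and 4339 at the 4-cell stage and 46.5 and 62.1 at the 8-cell stage. It had been 1175 and 219 in oocytes, 8314 and 10850 in 1-cell and 12229 and 16662 in 2-cell embryos, and it was 11.2 and 2.45 in blastocysts. The spliced form itself held 538 and 690 TPM of the 4-cell sums, the rest being single-exon transcripts of the same loci. Loci of such similar structure are likely to share reads, so a level belongs to the set rather than to a single locus. The 19 calls are therefore not separate results.

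Rises at multi-exon new loci were smaller. XLOC_005976 (chr16:94011422-94012178, minus strand) was at 2.15 and 1.47 TPM and then at 31.7 and 27.7 TPM, and XLOC_005901 (chr16:55776289-55788841, minus strand) at 0.804 and 0.277 TPM and then at 13.3 and 16.8 TPM. XLOC_011509 on chromosome 5 and XLOC_014559 on chromosome 9 had log2 differences of 3.35 and 2.83. All 4 lost their call without 4-cell replicate 2, and the last 2 without 4-cell replicate 1 as well.

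At isoform level 17516 merged transcripts were tested, of which 1243 (7.1%) rose and 3955 (22.6%) fell, 29.7% in all. After quantile normalization 2097 (12%) rose and 1949 (11.1%) fell, and with both scalings 1203 (6.87%) and 1942 (11.1%). Of 3399 genes with at least 2 tested isoforms, 43 had isoforms called in opposite directions on TPM and 44 after quantile normalization. Without 4-cell replicate 1 limma called no isoform in either direction (1387 rises and 3598 falls at an unadjusted p under 0.05), and without 4-cell replicate 2 none as well (1114 and 3559), against 809 rises and 3138 falls without 8-cell replicate 1 and 365 and 1337 without 8-cell replicate 2.

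A change in which isoform a gene uses was tested as the log2 ratio of an isoform to the other isoforms of its gene, with 1 TPM added to both. Of 7876 isoforms in 2938 genes, 104 (1.32%) gained and 107 (1.36%) lost share (2.68% in all) at an adjusted p under 0.05 with a change over 0.1 of the gene's TPM. In 66 genes 1 multi-exon isoform gained and another lost. With 0.1 TPM added in place of 1, there were 25 gains and 27 losses. The calls also depended on single libraries: without 4-cell replicate 1 limma called no isoform (489 gains and 481 losses at an unadjusted p under 0.05), without 4-cell replicate 2 none (415 and 437), without 8-cell replicate 2 there were 5 gains and 3 losses, and without 8-cell replicate 1 there were 188 gains and 199 losses, which held 72 of the 104 and 73 of the 107.

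Spin1, a reader of histone methylation that was first found as an abundant spindle-bound protein of the oocyte, had the largest change. Its full-length isoform of 6 exons begins at the annotated start and stood at 16.9 and 13.9 TPM and then at 11.7 and 9.83 TPM. Its start lies at position 51100881 of chromosome 13 (mm10, plus strand). A 4-exon isoform begins inside the gene at position 51132787 and holds 1 intron that is not in GENCODE. That start lies 1532 bases from the nearest GENCODE start and 10 bases from a RefSeq start. The internal isoform stood at 92.2 and 110 TPM and then at 0.734 and 0.796 TPM. The share of the internal isoform was thus 84.5% and 88.7% at the 4-cell stage and 5.92% and 7.49% at the 8-cell stage (log2 ratio -5.37 ± 0.37 SE, limma adjusted p = 0.0202). At gene level Spin1 fell 10.1-fold, and most of the TPM lost was that of the internal isoform. In oocytes that isoform was at 7508 and 1796 TPM, in 1-cell embryos at 5045 and 3995 TPM and in 2-cell embryos at 220 and 2104 TPM, whereas the full-length isoform lay between 13.9 and 45.4 TPM from oocyte to 4-cell embryo.

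The bases before both Spin1 starts are shown because the isoforms differ in where they begin. Both windows end at the base before a RefSeq start, 1 and 10 bases from the measured starts, on the plus strand (GRCm38.p6, capitals as above).
Spin1 full-length isoform, chr13:51100630-51100879, plus strand: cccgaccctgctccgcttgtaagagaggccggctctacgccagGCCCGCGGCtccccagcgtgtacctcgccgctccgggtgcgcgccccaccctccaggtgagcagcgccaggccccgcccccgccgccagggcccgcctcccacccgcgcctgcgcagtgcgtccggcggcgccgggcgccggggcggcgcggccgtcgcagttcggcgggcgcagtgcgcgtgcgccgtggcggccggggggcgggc
Spin1 internal isoform, chr13:51132547-51132796, plus strand: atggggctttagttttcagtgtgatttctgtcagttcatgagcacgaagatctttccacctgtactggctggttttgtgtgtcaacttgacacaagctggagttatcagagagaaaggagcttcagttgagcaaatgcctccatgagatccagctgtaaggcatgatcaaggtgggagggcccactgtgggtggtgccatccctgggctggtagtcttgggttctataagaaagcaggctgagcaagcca
The first window, of the full-length isoform, held 42 CpG with 82.4% G and C and a TFAP2 match. The second held 1 CpG with 49.6% G and C and none of the 5 motifs.

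**Figure D4:**
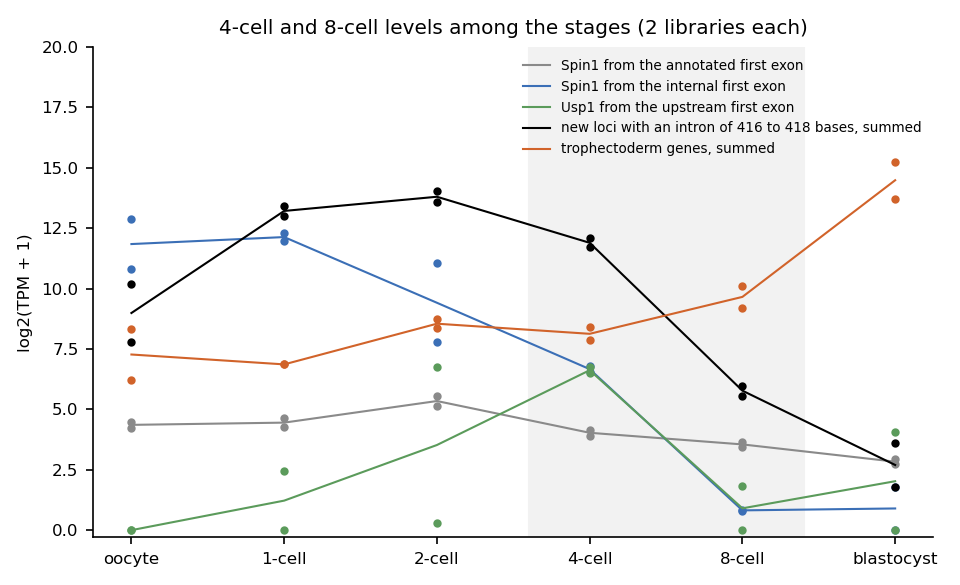
log2(TPM + 1) of both Spin1 isoforms, the Usp1 isoform from the upstream first exon, the summed 19 new loci with an intron of 416 to 418 bases and the summed trophectoderm list in each of 12 libraries from oocyte to blastocyst, with a line through the stage means and the 4-cell and 8-cell stages shaded. The internal Spin1 isoform and the new loci drop between these stages, from 92.2 and 110 TPM to 0.734 and 0.796 TPM and from 3340 and 4339 TPM to 46.5 and 62.1 TPM, whereas the full-length Spin1 isoform lies between 9.83 and 16.9 TPM.

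In Usp1, a deubiquitinase of DNA repair on chromosome 4, the isoform that lost share begins 4987 bases from the nearest annotated start and fell from 88.9 and 107 to 2.503 and 0 TPM. It was listed at 0 in both oocyte libraries and was at 0.230 and 107 TPM in 2-cell embryos, whose libraries disagree. In Mtus2 an isoform from an internal first exon held 75.4% and 73.4% of the gene at the 4-cell stage and 1.57% and 7.51% at the 8-cell stage, and it had been at 457 and 1600 TPM in oocytes. In Dpep3, which encodes a membrane dipeptidase, a 2-exon isoform that begins 4810 bases from the annotated start fell from 37.3 and 49.8 to 0.823 and 2.85 TPM while the annotated 10-exon isoform was at 9.79 and 10.98 and then at 20.7 and 38.4 TPM. That 2-exon isoform was at 4.31 and 2.69 TPM in oocytes.

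In Eif3c, a subunit of the translation initiation factor eIF3, the full-length 21-exon isoform made up 99.7% and 100% of the gene at the 4-cell stage and 32.4% and 52.1% at the 8-cell stage. The difference was an 8-exon isoform of 869 bases with the same start, at 0.842 and 0 TPM and then at 318 and 213 TPM. In Ceacam10, a cell adhesion gene, a 5-exon isoform held 87.2% and 86.3% at the 4-cell stage and 9.60% and 9.17% at the 8-cell stage, when a 6-exon isoform held 45.2% and 52.7%. Every multi-exon Ceacam10 isoform tested holds introns that are not in GENCODE. All 12 isoforms called in these 6 genes kept the direction of their change in each alternative fit, and all 12 lost their call without either 4-cell library and with the replicate block. Without 8-cell replicate 2 the call was lost by 8 of the 12, and with 0.1 TPM added in place of 1 by 6.

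**Figure D5:**
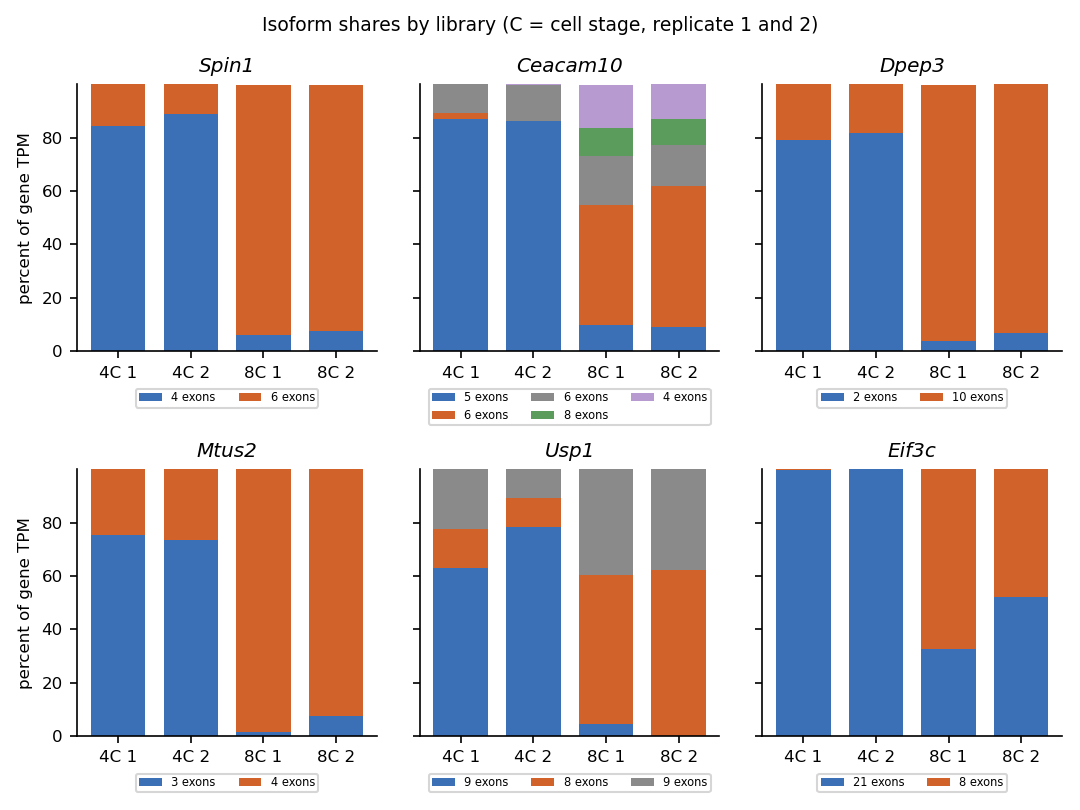
Stacked bars give the percent of a gene's TPM in each tested multi-exon isoform for the 6 genes with the largest share change, 1 bar per library (4C and 8C are the 4-cell and 8-cell stages). Blue is the isoform that lost most share and orange the one that gained most, other colours being further isoforms, all named by their number of exons. The bars of 1 stage resemble each other in every gene, with the widest gap between the 8-cell bars of Eif3c.

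Most of these pairs differed at the start. In 41 of the 66 genes (62.1%) the isoform that gained and the one that lost had different first exons, and in 30 of them nothing else differed. Among 2434 genes with no share call, the 2 most abundant multi-exon isoforms had different first exons in 35.1%. Last exons differed in 27.3% against 30.9%, and inner introns in 40.9% against 59.4%. The isoform that lost share followed an annotated intron chain in 21 of 66 genes and began within 300 bases of an annotated start in 33, whereas the isoform that gained did so in 43 and 61. The lost first exon lay upstream of the gained one in 16 of the 41 genes and downstream in 25. These counts are a description of the called genes, with no test.

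The long reads, 1 pool per stage, gave a second view of the isoforms present. The 4-cell pool held 8257 transcripts at 5221 loci and the 8-cell pool 8831 transcripts at 5520 loci, 16.7% and 18.3% of them single-exon. Of the 4-cell transcripts 3010 had no match in the 8-cell pool (36.5%, Wilson 95% interval 35.4 to 37.5), and of the 8-cell transcripts 3345 had no match in the 4-cell pool (37.9%, 36.9 to 38.9). The intervals cover counting error only, and with 1 pool per stage there is no replicate check. A transcript missing from a pool may have been too rare to be read.

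The short-read levels moved with the pool that held an isoform. Of 2022 tested multi-exon isoforms whose intron chain was in the 4-cell pool alone, 817 fell and 34 rose (40.4% and 1.68%), with a median change of -1.05. Of 1970 in the 8-cell pool alone, 327 rose and 147 fell (16.6% and 7.46%), with a median of 0.15. The 2799 isoforms in both pools had 191 rises and 379 falls and a median of -0.13, and the 6354 in neither pool 489 rises and 1458 falls and a median of -0.46. After quantile normalization the isoforms of the 4-cell pool alone had 428 falls and 75 rises, and those of the 8-cell pool alone 507 rises and 46 falls. Both kinds of library were made from the same batches of cDNA and are not independent. Of the 10 protein-coding genes with the largest fall, 6 had a multi-exon isoform in the 4-cell pool and none in the 8-cell pool, and of the 10 with the largest rise 1 had one in the 4-cell pool and 8 in the 8-cell pool.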

How the data were processed

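Values were taken from the merged TPM table, which the authors deposited for 14 short-read libraries, and from the long-read transcripts of the 4-cell and 8-cell pools. The authors amplified cDNA of pooled embryos with Smart-seq2, mapped the long reads to mm10, merged the transcripts of all stages and quantified them with Salmon. Smart-seq2 keeps no strand, so overlapping antisense genes share reads. Labels give the fathers as DBA/2J and the protocol text as DBA/2N. The 8-cell replicate numbers follow the sample titles, since the file names number them the other way round.

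Transcripts were assigned to GENCODE vM21 genes by same-strand exon overlap, and the TPM of each gene's transcripts were summed (954 transcripts overlapped more than 1 gene). Features with at least 1 TPM in at least 2 libraries were tested with limma 3.58.1 (R 4.3.3) on log2(TPM + 1), with the 2 libraries of each stage and Benjamini-Hochberg adjustment at 0.05. Isoform shares were tested in genes with a TPM of at least 5. Long-read transcripts matched by intron chain or, for single exons, by 80% reciprocal overlap. Named genes were, among called features, the 10 protein-coding genes with the largest rise and fall whose stages did not overlap, the 4 such multi-exon new loci, the 6 genes with the largest opposite share changes of multi-exon isoforms, and in each list the 3 tested members with the largest absolute change and those it is best known for. Other list members were chosen after their values were seen. The result of 1 gene is not reported here. The members and lists were chosen with earlier results of these data known. Scripts were tested on simulated data with 200 changed features and the spread of each stage. Of 200 changed genes, 0 were called at a log2 change of 1, 91 at 2 and 200 at 4. For isoforms 0 and 39 were called at changes of 1 and 2, and for isoform shares 0 and 61. A feature that was not called may therefore have changed. The replicate numbers were not used as a block: the deviations of same-numbered libraries had a correlation of -0.096 over genes and -0.117 over isoforms. Alternatives were other scalings, filters, pseudocounts, left-out libraries, a fit over 12 libraries and the block.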

Additional observations from a re-analysis of the deposited data

How the results depend on the processing

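The counts of calls depended on scaling and on single libraries, and the direction of called genes did not change with scaling. After quantile normalization 1592 genes were called higher and 1518 lower, with median centring 1984 and 1415, and in a fit over 12 libraries 133 and 442. For isoforms these counts were 2097 and 1949, 2636 and 1819, and 178 and 591. Leaving out 1 library gave 56 to 880 genes higher and 556 to 2944 lower, the lowest counts being those without 4-cell replicate 2, and 0 to 809 isoforms higher and 0 to 3138 lower. Of the 966 genes called higher and 2906 called lower, 44 and 500 were called in each of the 4 fits without 1 library.

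Isoform shares were called least firmly. A pseudocount of 0.1 left 25 gains and 27 losses, and leaving out 1 library gave 0 to 188 gains and 0 to 199 losses. The replicate block, with libraries paired by number, gave 743 genes higher and 2429 lower, 831 isoforms higher and 2905 lower, and with limma 0 share gains and 0 losses (566 and 549 at an unadjusted p under 0.05); the numbers are not known to mark a shared batch. With the pairing crossed, an alternative chosen after seeing the data, there were 1152 and 3260 genes, 1617 and 4682 isoforms and 86 and 85 share calls. The cause of these differences was not tested.

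The share of long-read isoforms lost was 46.6% and that gained 48.6% when the same intron chain was required, and 30.5% and 31.6% over multi-exon transcripts. Among 135 genes named for their gene-level change, 12 lost their call after quantile normalization, 16 with median centring, 76 in the fit over 12 libraries, 11 with the replicate block, 75 without 4-cell replicate 1, 85 without 4-cell replicate 2, 14 without 8-cell replicate 1 and 26 without 8-cell replicate 2. Of these 135 genes, 6 that were not called on TPM changed sign on the log2 scale. Dppa3 was at 0.28 with median centring. Zfp352, Cd74 and Tssk6 were at 0.13, 0.22 and 0.35 after quantile normalization and at 0.11, 0.23 and 0.32 with median centring. The fits without 1 library gave Cd74 -1.44 to 0.73, Tssk6 -0.93 to 0.39, Lyz2 -2.15 to 0.094 and Esr1 -0.063 to 0.11. Over all 12105 tested genes many more signs changed with scaling, since 4061 changes were above 0 on TPM and 6273 after quantile normalization. The counting error of low values was not computed.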
